A study of Mus musculus with 35 samples.

Results

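The regions described here are the 1384 places in the mouse genome where KLF4 was found in embryonic stem cells (ESC) grown in 2i medium and in no other KLF4 library of the series. They were chosen by their KLF4 peaks. All peaks of the 10 KLF4 lists on chromosomes 1 to 19 and X were merged where they shared at least 1 bp, which gave 85740 merged regions. A region was kept when a peak of both 2i libraries overlapped it and no peak of the 8 other libraries did. These 2i-alone regions were 1.61% of all merged regions. The KLF4 peaks made the choice, so their presence in 2i and absence elsewhere is a description and not a finding. Acetylation of histone H3 at lysine 27 (H3K27ac), position and promoter sequence played no part in it.

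KLF4 is a zinc-finger transcription factor that binds GC-rich DNA and is one of the factors that turn fibroblasts into pluripotent cells. In mouse ESC it acts in a network with NANOG, OCT4, SOX2, ESRRB and other KLF proteins. The 2i condition adds an inhibitor of MEK, which lowers ERK signalling downstream of FGF receptors, and an inhibitor of GSK3, which lets β-catenin build up and relieves repression by TCF factors. It holds ESC in a more uniform naive state than serum with LIF. H3K27ac marks active enhancers and promoters.

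The series followed reprogramming of mouse embryonic fibroblasts (MEF) of C57BL/6 x 129 background. They carried a doxycycline-driven cassette of Oct4, Klf4, Sox2 and c-Myc (OKSM) in Col1a1 and the transactivator M2rtTA in Rosa26, and MEF libraries came from such cells before induction. Reprogramming cells received doxycycline at 1 µg/ml and ascorbic acid at 50 µg/ml in ESC medium, and were taken unsorted on day 3 and as sorted SSEA1-positive cells on days 6 and 9. ESC were the V6.5 line, a single line, kept in serum and LIF on irradiated feeder cells. The 2i cells were the same line in the same medium, so serum, LIF and feeders stayed present, with the MEK inhibitor at 1 µM and the GSK3 inhibitor at 3 µM. KLF4 was mapped by chromatin immunoprecipitation and sequencing (ChIP-seq) in 2 libraries each of day 3, day 6, day 9, serum ESC and 2i ESC. H3K27ac was mapped in 2 MEF, 3 day 3, 3 day 6, 2 day 9 and 2 serum ESC libraries, and no H3K27ac library of 2i cells was among them, so acetylation here is always that of other cells than those in which the regions were bound. The series text calls the replicates biological, and the labels do not say which came from separate cultures, so p-values measure the spread between these libraries.

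Several facts of the whole series touch these results. The 10 KLF4 lists held 21129 to 34640 peaks and the 12 H3K27ac lists 17493 to 88347 peaks. No read numbers come with the lists, so depth is unknown and KLF4 may be present where no peak was called. The 2i libraries came from batches EC-EA-3702 and EC-DG-3012 and the serum ESC libraries from EC-EA-2697 and EC-EA-2643, and this leaves culture medium and batch confounded in the choice of the regions, which cannot be told apart. All day 9 libraries were of batch EC-EA-3702. Of 10 fibroblast marker genes, all 10 carried H3K27ac within 2.5 kb in both MEF libraries and 6 and 4 did in the ESC libraries. Of 10 pluripotency markers, 3 did in each MEF library and all 10 in each ESC library.

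A small set of 2i-alone regions lay on promoters, and 5 of these promoters are shown for genes of different kinds and acetylation patterns. They were picked after their values were seen, apart from Wnt3a and Dnmt3l, which stand on gene lists used below. Klf8 encodes a KLF relative of KLF4. Hs3st4 encodes a heparan sulfate sulfotransferase. Mapre3 encodes a microtubule end-binding protein. Wnt3a encodes a WNT ligand. Dnmt3l encodes the cofactor of the de novo DNA methyltransferases. Each line gives the 250 bases before the annotated start, 5′ to 3′ on the gene's strand, from RefSeq on GRCm38.p6, with every match to GGGNGNGG on either strand in capitals, where overlapping matches run together. These letters are the core that KLF proteins favour.
Klf8, chrX:153237498-153237747, plus strand: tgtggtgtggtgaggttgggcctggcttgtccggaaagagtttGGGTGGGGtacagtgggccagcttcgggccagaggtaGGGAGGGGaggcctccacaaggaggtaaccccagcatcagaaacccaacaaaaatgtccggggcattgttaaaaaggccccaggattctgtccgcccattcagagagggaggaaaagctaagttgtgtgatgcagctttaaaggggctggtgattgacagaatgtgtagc
Hs3st4, chr7:123982578-123982827, plus strand: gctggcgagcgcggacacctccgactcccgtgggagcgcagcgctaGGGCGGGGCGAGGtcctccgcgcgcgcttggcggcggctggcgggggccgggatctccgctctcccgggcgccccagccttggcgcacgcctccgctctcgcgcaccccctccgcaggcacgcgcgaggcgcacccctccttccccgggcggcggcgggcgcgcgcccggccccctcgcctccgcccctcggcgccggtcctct
Mapre3, chr5:30814391-30814640, plus strand: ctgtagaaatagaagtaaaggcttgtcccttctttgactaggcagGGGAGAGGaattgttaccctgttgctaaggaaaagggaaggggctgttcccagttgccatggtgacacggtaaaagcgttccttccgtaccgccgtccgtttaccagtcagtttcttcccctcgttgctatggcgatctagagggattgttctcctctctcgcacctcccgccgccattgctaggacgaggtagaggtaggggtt
Wnt3a, chr11:59290752-59291001, minus strand: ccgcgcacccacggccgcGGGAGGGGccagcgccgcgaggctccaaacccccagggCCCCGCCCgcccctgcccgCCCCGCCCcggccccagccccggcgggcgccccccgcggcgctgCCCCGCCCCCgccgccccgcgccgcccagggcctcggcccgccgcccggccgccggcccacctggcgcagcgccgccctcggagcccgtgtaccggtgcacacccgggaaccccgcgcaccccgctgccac
Dnmt3l, chr10:78049592-78049841, plus strand: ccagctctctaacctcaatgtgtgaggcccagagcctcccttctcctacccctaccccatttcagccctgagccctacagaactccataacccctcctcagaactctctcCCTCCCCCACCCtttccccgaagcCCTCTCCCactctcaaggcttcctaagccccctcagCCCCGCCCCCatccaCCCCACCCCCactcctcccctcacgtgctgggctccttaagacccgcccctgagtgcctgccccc

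The KLF letters occurred in all 5 windows and were densest before Dnmt3l. Not all of them lay under the KLF4 region. The Mapre3 region began at base 169 of its window, after the match. The Wnt3a region ended at base 94 of its window, before the last matches. The start used for Dnmt3l lay inside the gene, which runs over chr10:78042287-78063622. The Dnmt3l region, chr10:78049614-78049917, had a KLF4 fold enrichment over control, as the authors deposited it, of 4.06 in the EC-EA-3702 2i library and 3.19 in the EC-DG-3012 2i library. It carried H3K27ac in both ESC libraries, with deposited folds of 16.9 and 17.6, and in none of the 10 others. The Hs3st4 region had KLF4 folds of 6.08 and 5.66 and ESC acetylation of 6.53 and 5.20 fold, again with no H3K27ac peak in the 10 others. The Klf8 region had KLF4 folds of 7.74 and 4.79. It was acetylated in both MEF and both ESC libraries, 1 day 3 library and 1 day 9 library. The Mapre3 region, with KLF4 folds of 5.66 and 4.26, had H3K27ac peaks in every MEF, day 3, day 6 and day 9 library and in 1 of 2 ESC libraries. The Wnt3a region, with KLF4 folds of 3.76 and 3.92, carried no H3K27ac peak in any of the 12 libraries. The 5 promoter regions thus ranged from no acetylated library to 11 of the 12.

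In all, 67 of the 1353 regions off chromosome 18, whose promoters were not used here, overlapped 75 RefSeq promoter windows of 70 genes. A window runs from 250 bases before to 50 after a start, and the table covers 17274 of 21631 protein-coding genes. Matches of letters were counted anywhere in a window, also outside the part that a region overlapped. The letters GGGNGNGG, searched on both strands, were in 57 of the 75 windows, 76.0%, against 49.8% of all 32585 windows. The share was 77.3% over the 12424 windows touched by any KLF4 region, so it was near that background. It was 89.0% for regions with a peak in every KLF4 library and 55.6%, 20 of 36, for regions found in serum ESC alone. Windows under 2i-alone regions had a median GC content of 61.3% against 53.0% over all windows and 63.0% under any KLF4 region. The STAT letters TTCNNNGAA were in 13 of the 75 windows, 17.3%, against 8.33% of all windows and 5.91% of those under any KLF4 region. The TCF letters ATCAAAG and the octamer letters ATGCAAAT were in 0 of 75, against 3.76% and 1.75% of all windows and 2.37% and 1.62% of those under any KLF4 region. The other 6 sets of letters searched were those of ESRRB (AAGGTCA), in 5.33% of the 75 windows against 2.68% under any KLF4 region, SOX (AACAATG), 2.67% against 1.75%, and AP-1 (TGANTCA), 5.33% against 4.41%. TEAD letters (GGAATG) were in 9 of 75 against 11.5%, CTCF letters (AGGGGGC) in 9 of 75 against 18.3%, and GRHL letters (AACCGGTT) in 0 of 75 against 0.233%. No motif share was tested. H3K27ac was present in both ESC libraries on 30 of the 67 promoter regions, 44.8%, and in both MEF libraries on 21, 31.3%. Of the 10081 KLF4 regions on promoter windows in the whole series, 80.1% and 80.5% were acetylated in this way, and of the 34 serum-alone ones 67.6% and 44.1%. The counts were not tested.

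Regions found in a single stage were a small fraction everywhere. By the same rule, both libraries of the stage and none of the 8 others, 2139 regions were found on day 3 alone, 96 on day 6 alone, 1337 on day 9 alone and 1127 in serum ESC alone. Among the 15072 regions with a peak in both 2i libraries, the 2i-alone regions made up 9.18%, while 4191 had a peak in every KLF4 library. Just outside the rule stood 1597 regions with peaks in both 2i libraries and exactly 1 other. The other library was the serum ESC library of batch EC-EA-2643, the longest KLF4 list, for 1268 of them, or 79.4%. Beyond these, 3291 regions had a peak in the EC-EA-3702 2i library and no other library, and 9660 in the EC-DG-3012 2i library and no other. Without the EC-EA-2643 serum library the rule would keep 2651 regions, and with only 1 of the 2i libraries it would keep 11223 (EC-DG-3012) or 4732 (EC-EA-3702).

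**Figure D1:**
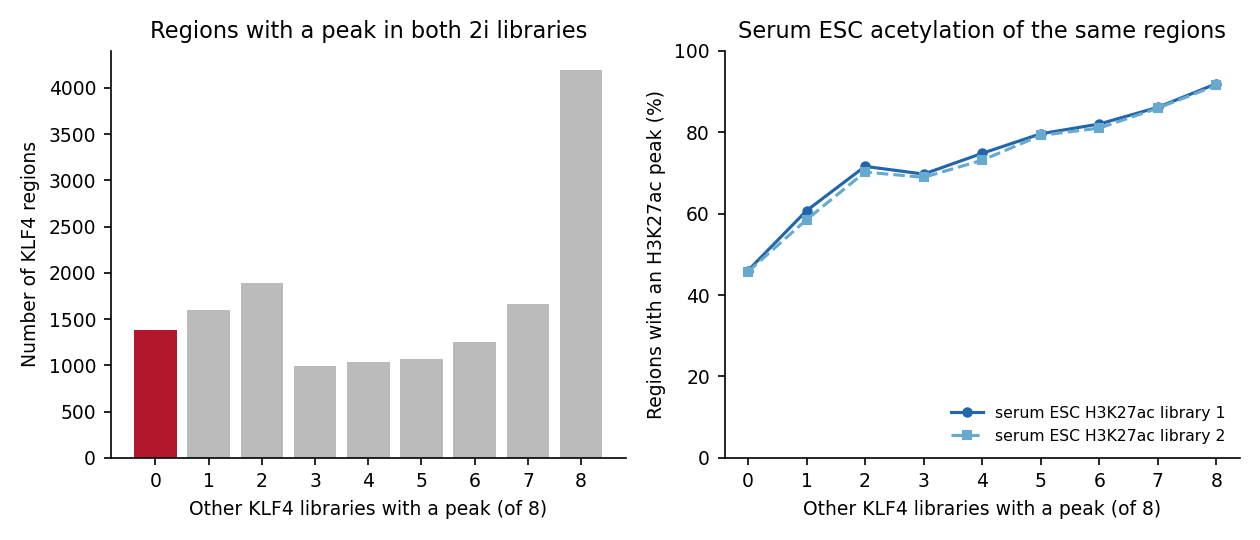
Left, the number of merged KLF4 regions with a peak in both 2i libraries, by how many of the 8 other KLF4 libraries also had a peak, with the 1384 2i-alone regions in red. Right, the percent of the same regions with an H3K27ac peak in each of the 2 serum ESC libraries, which runs from 46.0% and 45.7% at 0 other libraries to 91.9% and 91.5% at 8.

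KLF4 peaks of the 2i-alone regions were of low to middling strength. Their deposited fold had a median of 4.09 in the EC-EA-3702 library (range 2.03 to 15.3), at a median percentile of 35.2 of that list by score. In the EC-DG-3012 library the median was 3.48 (range 1.98 to 10.6), at percentile 51.0. Regions with a peak in every KLF4 library had medians of 7.16 and 4.63, at percentiles 83.2 and 82.3. A deposited q-value of at most 0.01 was reached by 56.0% of the 2i-alone regions in the first library and 32.0% in the second. The folds of the 2 libraries were weakly related across the 1384 regions, with a Spearman coefficient of 0.163. The regions had a median width of 297 bp, from 184 to 883 bp, against 831 bp for regions with a peak in every library, which are unions of 10 peaks or more. The 1597 regions just outside the rule, with 1 other library, had median folds of 4.41 and 3.69.

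Acetylation of the 2i-alone regions was far more frequent in serum ESC, where KLF4 had no peak on them, than in MEF or at any day of reprogramming. The 2 MEF libraries had an H3K27ac peak on 13.9% and 13.3% of the regions. Day 3 libraries had one on 7.44% (EC-EA-3702), 6.29% and 5.13%. Day 6 libraries had one on 3.11%, 2.38% and 3.90% (EC-EA-3702), the lowest values of all with the full lists. The day 6 H3K27ac lists were also the shortest, with 17493 to 22462 peaks. The share was 11.2% and 11.8% in the day 9 libraries and 46.0% and 45.7% in the ESC libraries, or 637 and 632 regions. Both ESC libraries stood far above the other 10, and no day 6 library reached any library of another stage. As means, the share was 13.6% ± 0.460 in MEF (SD, n = 2), 6.29% ± 1.16 on day 3 (n = 3), 3.13% ± 0.759 on day 6 (n = 3), 11.5% ± 0.460 on day 9 (n = 2) and 45.8% ± 0.255 in ESC (n = 2). With equal lists, each cut to the number of peaks of the shortest list of its assay, the rule kept 1199 regions. Mean shares were then 5.80% in MEF, 3.59% on day 3, 3.00% on day 6, 5.09% on day 9 and 22.2% in ESC. With the full lists, the stages were also compared by a test. The difference between stages was larger than the spread between libraries (F = 1044; exact permutation p = 7.22e-06, two-sided, with 1663200 labelings; Benjamini-Hochberg adjusted over 4 tests, 1.44e-05). No smaller p is possible with these libraries. When the regions were shifted by 1 Mb, the mean share with a peak was 5.17% in MEF, 2.58% on day 3, 1.18% on day 6, 3.40% on day 9 and 5.78% in ESC, below the measured means at every stage. F was 210 when the rule went without the EC-EA-3702 2i library, 381 without the EC-DG-3012 one, 518 and 527 without either ESC H3K27ac library, with equal lists 171 (exact permutation p = 9.88e-04), and 1641 and 1615 without the EC-EA-3702 library or the second EC-DG-3458 library of day 3, and over every library left out in turn the exact permutation p was at most 1.15e-04.

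**Figure D2:**
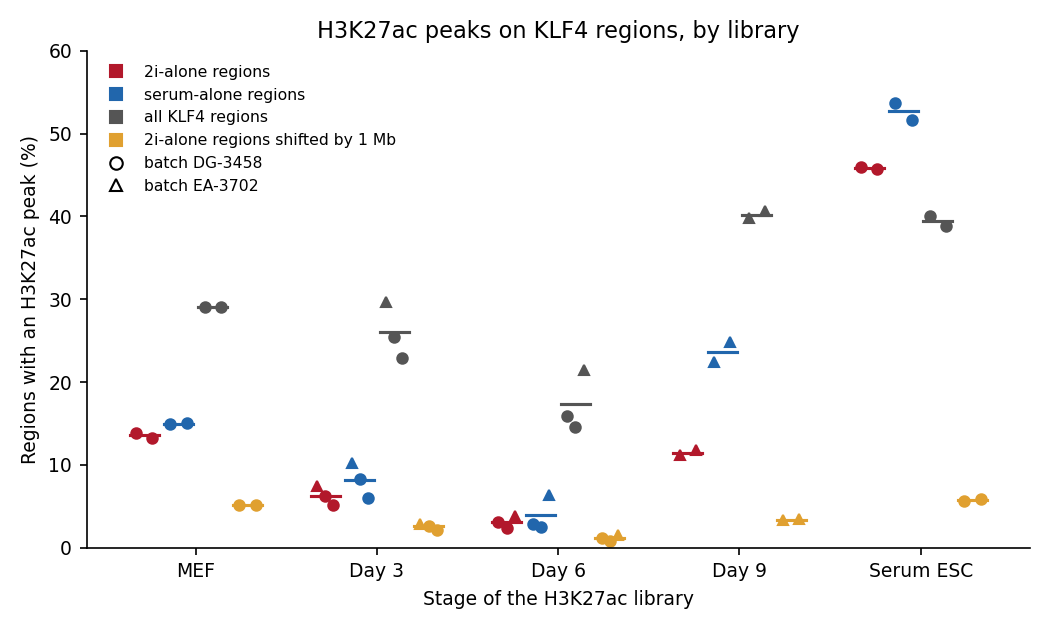
Percent of KLF4 regions with an H3K27ac peak in each of the 12 H3K27ac libraries (points, with the shape giving the batch) and the mean of each stage (lines), for 2i-alone regions, serum-alone regions, all KLF4 regions and 2i-alone regions shifted by 1 Mb. In ESC, with the full lists, the 2i-alone regions (mean 45.8%) lie above all KLF4 regions (mean 39.5%), and at the 4 other stages they lie below them.

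The H3K27ac lists differ in length between stages, so each library's share was also divided by its share over all 85740 KLF4 regions, which averaged 29.1% in MEF, 26.0% on day 3, 17.3% on day 6, 40.2% on day 9 and 39.5% in ESC. The ratio was 0.468 ± 0.0163 in MEF, 0.241 ± 0.0143 on day 3, 0.180 ± 0.0162 on day 6, 0.287 ± 0.00698 on day 9 and 1.16 ± 0.0175 in ESC, with n as above. It differed between stages (F = 1586, exact permutation p = 7.22e-06, adjusted 1.44e-05). The rule left out regions with a KLF4 peak on day 3, 6 or 9 or in serum ESC. Day 9-alone regions, chosen by the same rule, had H3K27ac on 53.3% and 50.2% in the day 9 libraries and 11.1% and 8.75% in ESC. Day 3-alone regions had it on 32.9% to 49.7% on day 3, 37.2% and 37.1% in MEF and 11.7% and 11.5% in ESC. The part of the rule in the stage differences of share and ratio was not tested. With the full lists, ESC was the stage where 2i-alone regions were acetylated more often than KLF4 regions at large. The same held for serum-alone regions, with a mean ratio of 1.33 in ESC, 0.515 in MEF, 0.310 on day 3, 0.215 on day 6 and 0.587 on day 9. Over the 2 ESC libraries the 2i-alone ratio was 0.884 above the mean of the 10 others (exact permutation p = 0.0152 over 66 labelings, the smallest possible, and adjusted 0.0202). The 10 others averaged 0.277 ± 0.109, with a range of 0.163 to 0.479. The ranges did not overlap. With 1 ESC H3K27ac library left out the difference was 0.896 or 0.871, and the smallest p that 11 labelings allow is then 0.0909. It was 0.549 when the rule went without the EC-EA-3702 2i library (exact permutation p = 0.0152). F for the ratio was then 967, and 1005 and 957 without either ESC H3K27ac library. With equal lists it was 298 (exact permutation p = 0.00144). Within batch EC-DG-3458 the mean ratio was 0.468 in MEF, 0.236 on day 3, 0.179 on day 6 and 1.16 in ESC. Within batch EC-EA-3702, which holds no MEF or ESC H3K27ac library, it was 0.250 on day 3, 0.182 on day 6 and 0.287 on day 9. When every list was cut to the number of peaks of the shortest list of its assay, the ESC ratio was 0.871, from 22.2% of 1199 regions against 25.5% of all, so that an ESC share above that of all KLF4 regions held with the full lists and not with equal ones. The ratio with equal lists was 0.290 in MEF, 0.169 on day 3, 0.155 on day 6 and 0.167 on day 9.

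The regions found in serum ESC alone are the mirror image of the 2i-alone regions, and their acetylation ran higher in ESC and on day 9. The mean share of serum-alone regions with H3K27ac was 15.0% ± 0.125 in MEF, 8.16% ± 2.09 on day 3, 3.90% ± 2.16 on day 6, 23.6% ± 1.63 on day 9 and 52.7% ± 1.38 in ESC. The 2i-alone share minus the serum-alone share was −6.86 ± 1.12 percentage points in ESC and −12.1 ± 1.17 on day 9, against −1.38 in MEF, −1.88 on day 3 and −0.773 on day 6. The ESC difference against the 10 other libraries together was −3.38 points and did not pass the test (exact permutation p = 0.379, adjusted 0.379). This comparison depended on the peaks and the libraries used. It was −9.80 points with the top 50% of each list and −11.6 with equal lists (unadjusted exact permutation p = 0.0152 for both), and 4.02 with an overlap of at least 50% (p = 0.0455, exact). At a deposited q-value of at most 0.01 it was −8.36 points, and with KLF4 peaks cut to 200 bp −5.73. Neither passed (unadjusted exact permutation p = 0.0606 and 0.0909). It was 8.87 points without the EC-EA-2697 serum library and 16.4 without the EC-EA-2643 one, and −15.4 and −18.7 without either 2i library, each with an unadjusted exact permutation p of 0.0152.

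Counted region by region, 537 of the 1384 2i-alone regions, 38.8% (exact binomial 95% interval 36.2% to 41.4%), had H3K27ac in both ESC libraries, against 35.8% of all KLF4 regions. The interval covers counting error over regions alone. Of these, 341 had no H3K27ac peak in any of the 10 other libraries, which is 24.6% of the 2i-alone regions against 8.19% of all KLF4 regions and 23.2% of serum-alone regions. The other 196, 14.2%, had a peak in at least 1 other library, against a background of 27.6%. H3K27ac in both MEF libraries was found on 159 regions, 11.5% against 27.3%. Presence in at least 2 libraries was found on 77 regions for day 3, 5.56% against 25.2%, and on 38 for day 6, 2.75% against 16.3%. Both day 9 libraries covered 131 regions, 9.47% against 36.5%, and 107 of the regions were also covered by both ESC libraries, 7.73% against 23.5%. MEF acetylation with no ESC peak was found on 40 regions, 2.89% against 7.38%, and all 12 libraries covered 18 regions, 1.30% against 10.1%. No library had a peak on 566 regions, 40.9% against 35.0%.

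With a stage called acetylated when at least 2 of its libraries had a peak, the commonest pattern was no stage, 767 regions or 55.4% against 44.4% of all KLF4 regions and 45.8% of serum-alone regions. Of these 767, 201 had a peak in some library without reaching 2 of a stage. ESC alone followed with 386 regions, 27.9% against 10.2% of all KLF4 regions and 28.5% of serum-alone regions. No other pattern held more than 45 regions. MEF alone was found on 45, 3.25% against 3.94%, day 9 with ESC on 43, 3.11% against 4.65%, and MEF with ESC on 34, 2.46% against 1.22%. All 5 stages were acetylated on 28 regions, 2.02% against 12.1%, and MEF, day 3, day 9 and ESC on 16, 1.16% against 2.33%. Day 9 alone was found on 12, 0.867% against 6.70%. At least 1 ESC library had a peak on 732 regions, 52.9% against 43.2%.

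**Figure D3:**
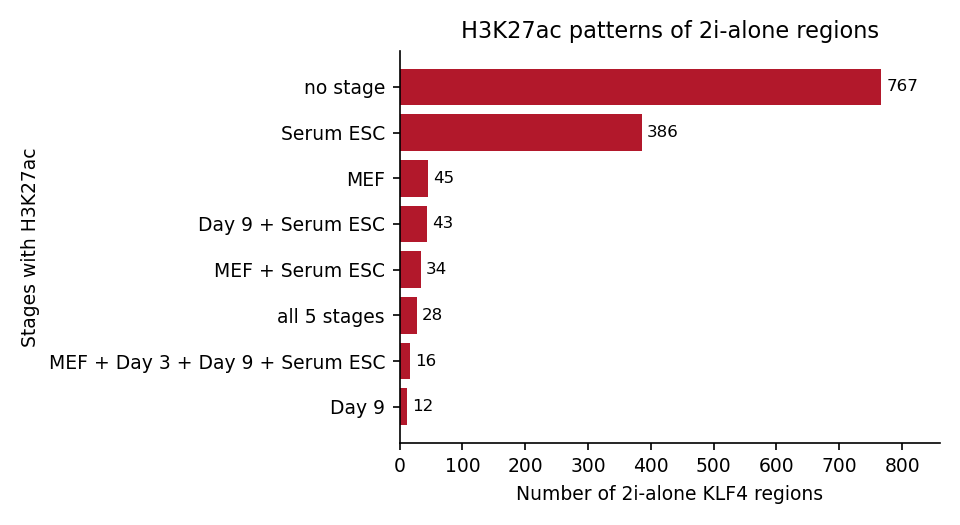
Number of 2i-alone KLF4 regions with each of the 8 commonest combinations of stages at which at least 2 libraries had an H3K27ac peak. No stage (767 regions) and serum ESC alone (386) lead, and the next pattern holds 45.

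Where an ESC library had an H3K27ac peak on a 2i-alone region, its deposited fold had a median of 6.76 in the first library and 6.34 in the second. The medians were 8.54 and 8.26 for all KLF4 regions, 8.80 and 8.23 for serum-alone regions, and 13.1 and 12.5 for regions with a peak in every KLF4 library. The strongest of the 2i-alone regions stood apart from the rest in acetylation, while the middle and the weakest were alike in MEF and ESC. The 462 strongest regions by mean rank had ESC acetylation on 50.2% and 48.9%, against 43.4% and 43.6% of the 461 in the middle and 44.5% and 44.5% of the 461 weakest. In MEF 9.74% and 8.44% of the strongest were acetylated, against 16.1% and 15.6% of the middle and 16.1% and 15.8% of the weakest. Day 9 had 6.28% and 6.71% of the strongest, 13.2% and 12.8% of the middle and 14.1% and 16.1% of the weakest. These differences were not tested. A gene end lay within 2.5 kb of 17.7% of the strongest, 19.5% of the middle and 21.0% of the weakest regions, and regions near gene ends were acetylated in ESC more often (58.4% and 56.9%) than those farther away (43.0% in each library). In MEF the shares were 27.5% and 29.0% near gene ends and 10.7% and 9.51% farther away. On day 9 they were 24.5% and 27.1% near gene ends and 7.98% and 8.16% farther away. The part of position in these shares was not tested.

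**Figure D4:**
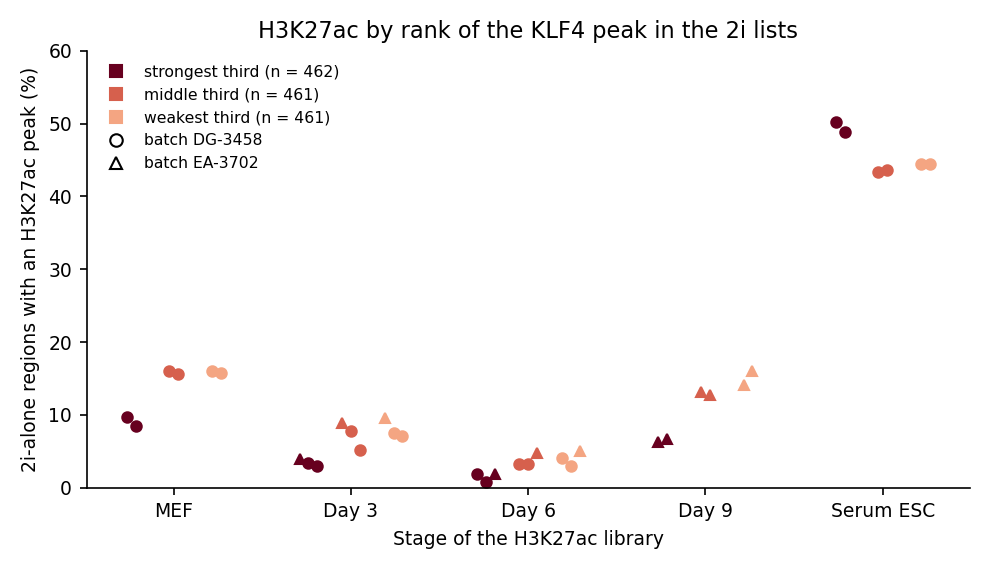
Percent of 2i-alone regions with an H3K27ac peak in each of the 12 libraries (points, with the shape giving the batch), split by mean rank of the deposited KLF4 score in the 2 2i lists into 462, 461 and 461 regions. The strongest set is highest in ESC (50.2% and 48.9%) and lowest in the MEF and day 9 libraries.

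Most 2i-alone regions lay away from promoters. Of the 1384 regions 269, 19.4%, had a protein-coding gene end at no more than 2.5 kb (exact binomial 95% interval 17.4% to 21.6%), against 26.0% of all KLF4 regions, 15.2% of serum-alone regions and 64.3% of regions with a peak in every KLF4 library. Widened to 10 kb, the share was 43.3% against 44.4% of all KLF4 regions. The table of genes gives no strand, so a gene end is either end of a gene. Over the 1353 regions off chromosome 18, whose starts were not used here, the nearest annotated start was a median of 25694 bp away. It was 39595 bp away for serum-alone regions, 27864 bp for all and 770 bp for regions with a peak in every library. A gene body was overlapped by 717 regions, 51.8% against 58.0%. As a share of all KLF4 regions of a chromosome, 2i-alone regions ran from 0.866% on chromosome 3 to 2.17% on chromosome 11.

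Many 2i-alone regions stood close to places that KLF4 bound in serum ESC too. A region with a peak in both serum ESC libraries lay within 10 kb of 481 of them, 34.8%, at a median distance of 19030 bp. The share was 33.5% for serum-alone regions, 18.4% for day 3 alone, 17.5% for day 9 alone and 28.5% for all KLF4 regions. Another 2i-alone region lay within 10 kb of 6.50% of them and of 3.18% of all KLF4 regions. Single-stage classes had another of their own class within 10 kb for 8.18% of day 3, 4.64% of day 9 and 5.50% of serum-alone regions. In all, 90 regions formed 43 runs of at most 3. One run of 3 stood beside Zbtb44, a zinc-finger gene, at chr9:31011145-31017082, and all 3 of its regions were acetylated in ESC. Of the other runs of 3, that nearest Anks1 had 3 regions acetylated in ESC, and those nearest Cstad and Spag9 had 1 each. The genes with most 2i-alone regions within 50 kb were the neighbours Bag5, a chaperone regulator, and Coa8, a mitochondrial assembly factor, with 4 regions each. Zbtb44, Bag5 and Coa8 were singled out after their values were seen.

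The 10 regions with the best mean rank in the 2i lists had H3K27ac, where they had it, in ESC libraries and in none of the 10 others. The first, chr6:87871239-87871636, lay 16183 bp from Copg1, a subunit of the COPI vesicle coat, with KLF4 folds of 13.6 and 10.6 and ESC H3K27ac folds of 5.01 and 3.66. The second, in Nol4l at chr2:153509624-153510163, had KLF4 folds of 10.0 and 9.58 and H3K27ac in 1 ESC library. The region by Aurkc, a meiotic kinase, had KLF4 folds of 14.1 and 6.36 and H3K27ac in 1 ESC library. These 3 were the best by mean rank over both 2i lists, and H3K27ac was found on them in 2, 1 and 1 of the ESC libraries.

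The strongest acetylation among the 10 was at chr19:10129590-10129992, 28087 bp from Fads2, a fatty acid desaturase. There KLF4 folds were 6.15 and 7.93 and ESC H3K27ac folds 17.3 and 14.4. The region 17 bp from Fasn, the fatty acid synthase, at chr11:120805529-120805941, had KLF4 folds of 15.3 and 5.39 and H3K27ac folds of 9.89 and 5.19. Its nearest annotated start was that of Dus1l, 9340 bp away, so it did not lie at the start of Fasn. Hspa4, a heat-shock protein gene, held a region with KLF4 folds of 11.4 and 6.84 and H3K27ac folds of 8.16 and 5.54. Sv2b, a synaptic vesicle gene, held one with KLF4 folds of 8.41 and 6.53 and H3K27ac folds of 10.0 and 5.49. The region nearest Lingo1, a neuronal receptor component, had KLF4 folds of 10.4 and 5.16 and H3K27ac folds of 3.37 and 4.36. The region nearest Ythdf3, a reader of methylated RNA, had KLF4 folds of 6.75 and 9.30 and a peak in 1 ESC library.

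Strong KLF4 peaks also occurred with no H3K27ac in any library. The best ranked of these lay in Liph, a lipase gene, at chr16:21989718-21990058, with KLF4 folds of 12.7 and 4.76. The next 4 lay in Spock1, a proteoglycan gene (8.41 and 5.66), Csnk1e, a casein kinase gene (6.13 and 7.95), Brinp1, a gene of the nervous system (8.41 and 5.16), and Bcap29, a gene of the endoplasmic reticulum (5.69 and 6.34). All 5 were inside gene bodies, which 51.8% of all 2i-alone regions and 58.0% of all KLF4 regions overlapped.

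The genes around the regions were read from 8 lists of 169 genes in all, on naive pluripotency, the pathways that the 2 inhibitors act on and the cell types that could be present. A 2i-alone region lay within 50 kb of 2802 of 21631 protein-coding genes, 13.0%, and a serum-alone region within 50 kb of 1878, 8.68%, with 348 genes near both. Of the listed genes 33, 19.5%, had a 2i-alone region and 27, 16.0%, a serum-alone one, and Pim1 and Dnmt3l had both. The listed genes shared 36 distinct 2i-alone regions, and 19 of these, 52.8%, were acetylated in both serum ESC libraries, against 38.8% of all 2i-alone regions and 35.8% of all KLF4 regions. Distance does not show that a region acts on a gene.

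**Figure D5:**
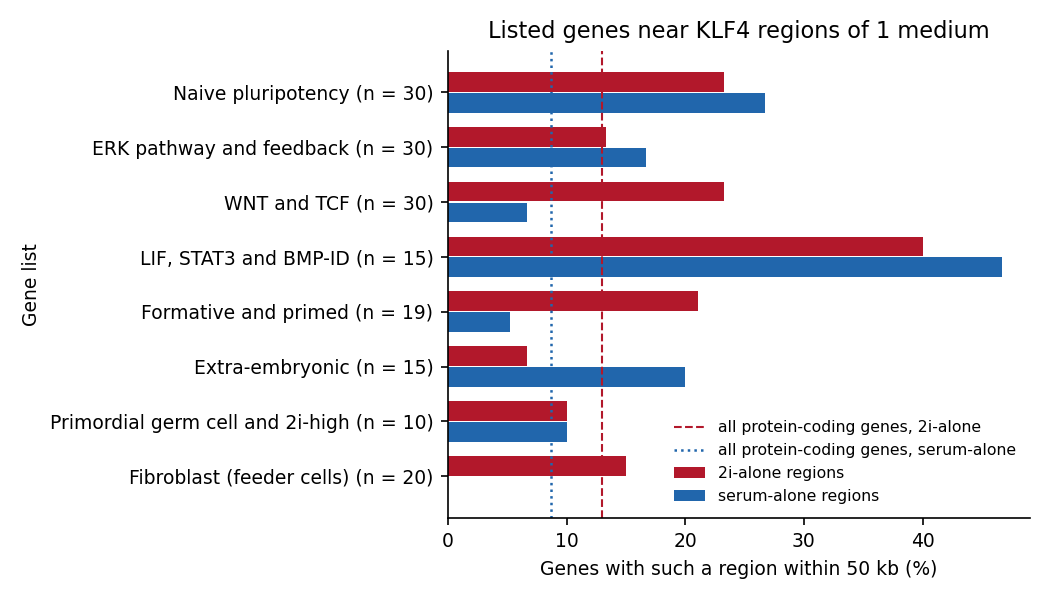
Percent of the genes of each list with a 2i-alone (red) or serum-alone (blue) KLF4 region within 50 kb, with the shares over all protein-coding genes as lines (13.0% and 8.68%). The WNT and TCF list has 7 of 30 genes near 2i-alone and 2 near serum-alone regions, and naive pluripotency 7 and 8.

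Of 30 naive pluripotency genes, 7 had a 2i-alone region, 23.3% against 13.0% of all genes, and 8 a serum-alone one, 26.7% against 8.68%. Nanog, a core regulator of the naive state, had 2, both acetylated in ESC. The better ranked, chr6:122695461-122695709, lay 11780 bp from the gene, with KLF4 folds of 6.41 and 3.59 and H3K27ac folds of 12.8 and 7.18 in the ESC libraries and no peak in the 10 others. Prdm14, which represses FGF signalling and DNA methyltransferase genes, also had 2. Its better ranked region, chr1:13081922-13082313, lay 31115 bp away, with KLF4 folds of 4.26 and 4.30 and ESC H3K27ac folds of 13.3 and 11.4, and again no peak in the 10 others. At both of these better ranked regions the acetylation was thus found in ESC libraries alone.

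Dppa3, a maternal and germ cell factor that guards DNA methylation, had a region across the edge of the gene with KLF4 folds of 5.18 and 3.12 and no H3K27ac in any library. The same region lay within 50 kb of Gdf3, a TGF-β ligand. Fgf4, the ligand that drives ERK signalling in ESC, had a weak region with folds of 2.44 and 3.39, acetylated in both ESC libraries. The region by Sall4, a zinc-finger pluripotency factor, lay 2039 bp away with folds of 4.12 and 3.69 and a peak in 1 ESC library. The region in Mybl2, a cell cycle regulator, had folds of 3.21 and 2.55 and H3K27ac in 7 libraries, MEF among them.

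The MEK inhibitor acts on the ERK pathway, and 4 of the 30 genes on that list had a 2i-alone region against 5 with a serum-alone one. The best by mean rank was in Etv5, an ETS factor induced by FGF and ERK, at chr16:22395162-22395521, with KLF4 folds of 5.37 and 5.06 and ESC H3K27ac folds of 7.06 and 3.53. Fosl1, an AP-1 subunit, had one 12379 bp away with KLF4 folds of 5.41 and 3.31 and ESC H3K27ac folds of 4.04 and 2.73. The region 47850 bp from Fos had folds of 2.93 and 3.48 and H3K27ac in 1 ESC library. The region 13705 bp from Map2k2, which encodes a MEK kinase, had folds of 3.11 and 3.28 and was acetylated in all 12 libraries, with ESC folds of 21.5 and 20.7. At 13.3% the share for the list was close to the 13.0% of all genes. For serum-alone regions it was 16.7% against 8.68%.

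The GSK3 inhibitor acts on the WNT pathway, and 7 of 30 genes had a 2i-alone region, 23.3% against 13.0% of all genes. A serum-alone region was near 2, 6.67% against 8.68%. The ligands were Wnt3, with a region in its gene body (folds 4.43 and 2.55, H3K27ac in 1 ESC library), and Wnt3a, whose promoter is shown above. The co-receptor gene Lrp5 had a region 47427 bp away with KLF4 folds of 4.92 and 3.58 and ESC H3K27ac folds of 5.47 and 7.28.

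Genes of both ubiquitin ligases that take WNT receptors off the cell surface were among them. Znrf3 held a region at chr11:5325285-5325716 with KLF4 folds of 6.45 and 3.64 and ESC H3K27ac folds of 6.56 and 5.23. Rnf43 had 2 regions, both acetylated in ESC, the better ranked with KLF4 folds of 3.65 and 3.97. Among the TCF factors, Tcf7 had a region at chr11:52227569-52227833 with KLF4 folds of 3.85 and 6.62 and ESC H3K27ac folds of 7.58 and 6.54. Tcf7l2 had one with KLF4 folds of 3.87 and 6.12 and H3K27ac in 1 ESC library. The best ranked region of each of these 7 genes had no H3K27ac peak outside ESC, while the second Rnf43 region had one in both MEF libraries.

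The list of LIF, STAT3 and BMP-ID genes had the highest share, 6 of 15 genes with a 2i-alone region, 40.0% against 13.0% of all genes, and 7 of 15 with a serum-alone one, 46.7% against 8.68%. These were Jak1, the kinase of the LIF receptor, Socs3 and Pim1, targets of STAT3, and Id1, Id2 and Id3, targets of BMP signalling. The region 23533 bp from Pim1 had the highest KLF4 fold in the EC-EA-3702 library of the best ranked ones, 6.70, with 3.64 in the other. The better ranked of 2 regions near Socs3 had folds of 4.28 and 5.22. Both ESC libraries had an H3K27ac peak on 1 of the 7 distinct regions, and on 5 of 8 for the WNT list, beside 38.8% of all 2i-alone regions and 35.8% of all KLF4 regions. The lists were not tested against each other. The best ranked regions of Jak1, Id1, Id2 and Pim1 had no H3K27ac peak in any library.

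Of 19 genes of the formative and primed state, which follows the naive one, 4 had a 2i-alone region, 21.1% against 13.0% of all genes. A serum-alone region was near 1 of the 19, 5.26% against 8.68%. Dnmt3a, a de novo DNA methyltransferase, had 2. The better ranked lay in the gene body with KLF4 folds of 2.65 and 3.58 and H3K27ac in both MEF libraries and 1 ESC library. Dnmt3l had the promoter region shown above, at an annotated start inside the gene, and Fgf15 shared the Fgf4 region. The region 40986 bp from Nodal, a TGF-β ligand, had folds of 4.06 and 3.64 and no H3K27ac.

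Sox17 was the single one of 15 extra-embryonic genes with a 2i-alone region, 6.67% against 13.0% of all genes. A serum-alone region was near 3 of the 15, 20.0% against 8.68%. The Sox17 region had KLF4 folds of 4.42 and 3.05 and no H3K27ac. Of 10 germ cell genes 1 had a serum-alone region, 10.0% against 8.68%. Prdm1, a regulator of germ cell fate, was the single one with a 2i-alone region, 10.0% against 13.0%, in its gene body at chr10:44482939-44483541. That region had KLF4 folds of 4.07 and 6.75 and ESC H3K27ac folds of 7.35 and 5.84. Of 20 fibroblast genes, which feeder cells, commonly fibroblasts, could express, 3 had a 2i-alone region, 15.0% against 13.0% of all genes. A serum-alone region was near 0 of the 20, against 8.68% of all genes. The region 35311 bp from Col1a1, a collagen gene, had KLF4 folds of 5.34 and 4.77 and H3K27ac in both MEF and both ESC libraries. The region near Thy1, a fibroblast surface protein, had folds of 8.41 and 3.92 and H3K27ac in 1 MEF library, and that near Runx1 had folds of 4.16 and 3.97 and no H3K27ac. The part of feeder cells in the 2i peaks was not tested.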

How the data were processed

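KLF4 (10 libraries) and H3K27ac (12 libraries) were mapped by single-end ChIP-seq, and 13 input samples were not analysed here. The authors called peaks separately in each library and deposited the 22 lists. The submitters' processing notes name cutadapt 1.8.1, Bowtie2 2.2.5, deepTools 2.3.6, MACS2 2.1.1 and build mm10, without settings or the control used. Each deposited peak has the authors' score, fold enrichment (a ratio), p-value and q-value, the last pair as −log10, and these were used to describe, rank and filter peaks within a list. Each list has 10 columns. Lists without read numbers give no depth, and no count test could be run.

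Peaks on chromosomes 1 to 19 and X were merged at 1 bp, and H3K27ac was counted present at 1 bp of overlap. Each library gave 1 value, and the tests were exact permutations of library labels, two-sided, with Benjamini-Hochberg adjustment over 4 tests and a threshold of 0.05. Gene positions and promoters came from RefSeq on GRCm38.p6, the same assembly as mm10. Named regions were the 10 best by mean rank of the deposited score in the 2i lists, the best 5 with H3K27ac in both ESC libraries and the best 5 with none, and the best ranked region within 50 kb of each listed gene. The regions, gene lists and tests were chosen with earlier results of these data known.

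The rule was tested on simulated data of 40000 sites with a 95% chance of a peak per bound library, where it recovered 90.7% of 2i-alone sites, and 0.501% of its calls were wrong. The 95% was assumed, so this checks the code and not the completeness of these lists. The most identical intervals that 2 KLF4 lists shared were 15, so no list was a copy of another. Correlations of same-numbered deviations of the H3K27ac libraries ran from −0.00455 to 0.00753. They cannot show whether libraries of the same number shared a culture or preparation, which the labels do not say. Python 3.11.15, numpy 2.4.6, pandas 2.3.3, scipy 1.17.1 and matplotlib 3.10.9 were used.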

Additional observations from a re-analysis of the deposited data

How the results depend on the processing

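Peak lists without read numbers limit every value here, since depth is unknown and the part of depth in what enters the rule was not tested. The number of 2i-alone regions was 822 with the top 50% of each list by score, 605 with a deposited q-value of at most 0.01, and 1406 to 11223 with 1 KLF4 library left out, with 2651 without the EC-EA-2643 serum library and 11223 and 4732 without either 2i library. The gene-end share was 26.2% with the top 50%, 21.9% with equal lists, 23.5% at the q limit, 11.7% within 1 kb, 43.3% within 10 kb, and 19.4% to 25.0% with 1 library left out, with 25.0% and 22.3% without either 2i library. The ESC contrast of the 2i-alone minus serum-alone share was −9.80 points with the top 50% and −11.6 with equal lists (exact permutation p = 0.0152 for both), −5.95 in batch EC-DG-3458 alone, chosen after seeing the data (exact permutation p = 0.0357), and 4.02, of the opposite sign, with 50% overlap (exact permutation p = 0.0455). This contrast did not pass at the q limit, −8.36, or with KLF4 peaks cut to 200 bp, −5.73 (exact permutation p = 0.0606 and 0.0909). Over single libraries left out it ran from −18.7 to 16.4, with the opposite sign, 8.87 and 16.4, without either serum KLF4 library and −15.4 and −18.7 without either 2i library. The cause was not tested.

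The ESC contrast of the ratio ran from 0.549 to 1.04 with 1 library left out and kept its direction, and was 0.896 and 0.871 without either ESC H3K27ac library (exact permutation p = 0.0909, the smallest that 11 labelings allow). With 1 library left out, F ran from 210 to 1641 for the share and from 957 to 1785 for the ratio. For the share and the ratio it was 171 and 298 with equal lists, 361 and 791 with 50% overlap and 440 and 853 with the top 50%. For the share it was 636 at the q limit and 2596 in batch EC-DG-3458 alone. With a replicate block, labels permuted within replicate number in batch EC-DG-3458, the ratio contrast was 0.867 (exact permutation p = 0.0625, the smallest that 16 labelings allow), and the block changed no other call of the full set of libraries. The share contrast that passed in batch EC-DG-3458 alone, −5.95, did not pass with the block (exact permutation p = 0.0625). Whether the numbers pair the samples is not known. Of all 150 alternative values, 127 kept their direction and their side of the threshold, or moved little. Motif shares of windows about the region centres, and their alternatives of other window lengths, were not run because they need a genome. Promoter windows were used in their place, chosen after seeing the data.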
